A study of Mus musculus with 24 samples.

Results

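The genes described here guide lymphocytes and dendritic cells into lymphoid tissue. They are 10 of the 23891 genes in the expression table, selected by their gene symbols. Cxcl13, Ccl19, Ccl21a and Ccl20 encode chemokines, Cxcr5, Ccr7 and Ccr6 encode the receptors of these chemokines, and Lta, Ltb and Tnfsf13b encode ligands of the tumor necrosis factor (TNF) family. RNA-Seq was performed on the left lung lobe of 24 C57BL/6 mice, which formed 4 groups. Mice given saline alone were 20 wk (naïve adult, n = 5) or 80 wk old (naïve aged, n = 5). Aged mice of 80 wk were challenged intranasally with 50 µg house-dust mite extract (HDM) per dose (n = 7), and a further group of HDM-challenged aged mice (n = 7) was given 4 mg/kg dexamethasone (Dex), a synthetic glucocorticoid. HDM-challenged adult mice were not analysed here, so HDM and Dex can be compared in aged lungs alone. Whole tissue was sequenced, and fewer cells of a type and less RNA per cell cannot be told apart in such samples.

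In lymphoid organs, stromal cells secrete CXCL13, which draws CXCR5-bearing B cells into follicles, whereas CCL19 and CCL21 draw CCR7-bearing T cells and mature dendritic cells into the T cell zone. CCL20 is made by epithelium and attracts CCR6-bearing B cells, Th17 cells and dendritic cells. Lymphotoxin, a membrane complex of the products of Lta and Ltb, signals through the lymphotoxin-β receptor and NF-κB to induce these chemokines, and BAFF, the product of Tnfsf13b, keeps B cells alive. In chronically inflamed lungs the same genes are known from aggregates of lymphocytes around airways and vessels.

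By the GENCODE annotation of GRCm38, Cxcl13 lies at chr5:95956951-95961068, Ccl20 at chr1:83116766-83119167, Ccl19 at chr4:42754525-42756577 and Ccl21a at chr4:42772860-42773993. The receptor genes lie at chr9:44511787-44561877 for Cxcr5, chr11:99144196-99155077 for Ccr7 and chr17:8236043-8257141 for Ccr6. Lta (chr17:35203165-35205351) and Ltb (chr17:35194439-35196320) are neighbors, and Tnfsf13b lies at chr8:10006467-10039072. The annotation also holds near-identical copies of Ccl21a on chromosome 4. Reads of Ccl21a, Ccl21b, Ccl21d and Gm13304 can be divided among them in a way that is not given in the sources used here, so the level of Ccl21a is uncertain. Ccl21a accounted for 51.2% to 68.6% of the sum of these 4 genes in a sample.

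Promoter sequences were taken from RefSeq for GRCm38.p6, from 250 bases before to 50 bases after each annotated start. They covered 8 of the 10 genes in 10 windows. The NF-κB motif GGNNTTTCC, in which N is any base, was searched on both strands because lymphotoxin signals through NF-κB, and it was found in 2 of these 10 windows and in 5.82% of the 32851 windows of all genes. The glucocorticoid response element was searched only as the exact letters AGAACA, any 3 bases and TGTTCT. It was found in 0 of the 10 windows and in 0.00913% of all windows. A match this rare cannot show whether these windows differ from others, and looser forms of the element were not searched. The windows that hold the NF-κB motif are shown here 5′ to 3′ along the gene, followed by those of Cxcl13 and Ccl19, the other chemokine genes that did not overlap between the ages. Capitals mark the NF-κB motif, which lies on the opposite strand at bases 164 to 172 of the Ltb window (chr17:35194257-35194556, plus strand) and at bases 171 to 179 of the Ccl20 window (chr1:83116516-83116815, plus strand). The windows of Cxcl13 (chr5:95956689-95956988, plus strand) and Ccl19 (chr4:42756316-42756615, minus strand) do not hold these letters.
Ltb: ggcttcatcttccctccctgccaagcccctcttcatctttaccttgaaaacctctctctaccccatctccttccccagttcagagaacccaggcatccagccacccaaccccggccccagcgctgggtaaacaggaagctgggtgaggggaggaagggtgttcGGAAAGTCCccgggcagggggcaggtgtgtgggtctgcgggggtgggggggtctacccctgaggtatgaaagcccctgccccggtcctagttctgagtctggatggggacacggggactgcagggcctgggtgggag
Ccl20: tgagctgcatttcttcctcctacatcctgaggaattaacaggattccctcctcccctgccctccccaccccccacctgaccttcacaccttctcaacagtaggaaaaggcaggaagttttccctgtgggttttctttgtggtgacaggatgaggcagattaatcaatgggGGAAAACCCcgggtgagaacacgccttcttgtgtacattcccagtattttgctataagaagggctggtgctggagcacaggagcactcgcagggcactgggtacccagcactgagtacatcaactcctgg
Cxcl13: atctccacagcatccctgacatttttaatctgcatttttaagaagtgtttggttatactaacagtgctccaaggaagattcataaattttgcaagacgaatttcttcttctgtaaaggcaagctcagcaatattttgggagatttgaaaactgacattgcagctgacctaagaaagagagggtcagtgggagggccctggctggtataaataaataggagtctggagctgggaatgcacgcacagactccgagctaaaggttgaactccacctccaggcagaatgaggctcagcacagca
Ccl19: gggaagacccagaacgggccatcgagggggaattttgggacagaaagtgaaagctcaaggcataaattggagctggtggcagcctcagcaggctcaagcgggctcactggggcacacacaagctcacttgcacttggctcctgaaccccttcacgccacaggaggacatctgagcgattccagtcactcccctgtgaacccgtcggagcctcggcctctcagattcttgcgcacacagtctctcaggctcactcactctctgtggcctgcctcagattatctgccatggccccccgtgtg

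The values are CPM, read counts scaled to the total of each library, and the authors' constant of 0.0001 CPM stands where no read was counted. Depth was estimated from the spacing of low values at 10.04 to 33.1 M reads per sample, so that 3 reads, taken as the detection floor, corresponded to 0.0906 to 0.299 CPM. Floors and depths cover counting error only. By Xist and Ddx3y, transcripts of female and male cells, all 5 naïve adult mice were female, whereas 2 of 5 naïve aged, 2 of 7 HDM and 4 of 7 HDM + Dex mice were female. 7SL RNA, which belongs to the signal recognition particle, made up 9.92% to 42.0% of the CPM. Its share exceeded 25% in 5 samples of the HDM group, 4 of the HDM + Dex group, 1 naïve adult and 0 naïve aged samples. These 5 HDM samples were the 5 male ones, so that sex and 7SL share cannot be told apart in the HDM group. Lung markers were abundant in every group: the summed CPM of 10 genes of alveolar, airway and vascular cells, among them Sftpc and Scgb1a1, was 4780 or more in each sample. The labels do not give litters or cages, and p-values measure the spread between these samples.

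Differential expression was computed with limma from log2(CPM + 1), with Benjamini-Hochberg adjustment over the 17744 genes that averaged at least 1 CPM, and a gene was called at an adjusted p under 0.05. Of the 10 genes, 9 were tested. Lta averaged less than 1 CPM. In naïve aged against naïve adult lungs 3 of the 9 were called, all higher, where 0.592% of all genes tested were called higher and 0.654% in either direction. These 3, Cxcl13, Ccl20 and Ccr6, averaged 0.837, 0.0324 and 0.924 CPM in naïve adult lungs. The filter took the mean of all 24 samples, so they passed it only through the aged groups, where they were higher. Without the filter the same 3 were called, where 93 of 23891 genes were called higher. In HDM vs. saline, which compares HDM with naïve aged lungs, 1 was called, also higher, where 4.04% of all genes were called higher and 25.3% in either direction. In HDM + Dex vs. HDM and in HDM + Dex vs. saline 0 of the 9 were called by limma, where 0.964% and 1.89% of all genes were called, and 1 of the 9 had an unadjusted p under 0.05 in each (13.5% and 21.2% of all genes). The median log2 fold change over the 9 was 0.41 with age, 0.20 in HDM vs. saline, −0.28 in HDM + Dex vs. HDM and 0.02 in HDM + Dex vs. saline, beside 0.19, −0.23, 0.03 and −0.19 over all genes tested. Median-of-ratios rescaling brought the medians over all genes to 0.00, −0.01, 0.00 and −0.01. It changed the HDM vs. saline calls from 717 higher and 3765 lower to 1934 higher and 2052 lower. The 3 aged comparisons share samples and are not independent. Each gene was also compared by a two-sided exact permutation test of the difference in mean CPM, in 40 tests whose p-values are unadjusted, and the smallest p these can give is 0.00794 for aged vs. adult, 0.00126 for comparisons with naïve aged lungs and 0.000583 for HDM + Dex vs. HDM.

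**Figure D1:**
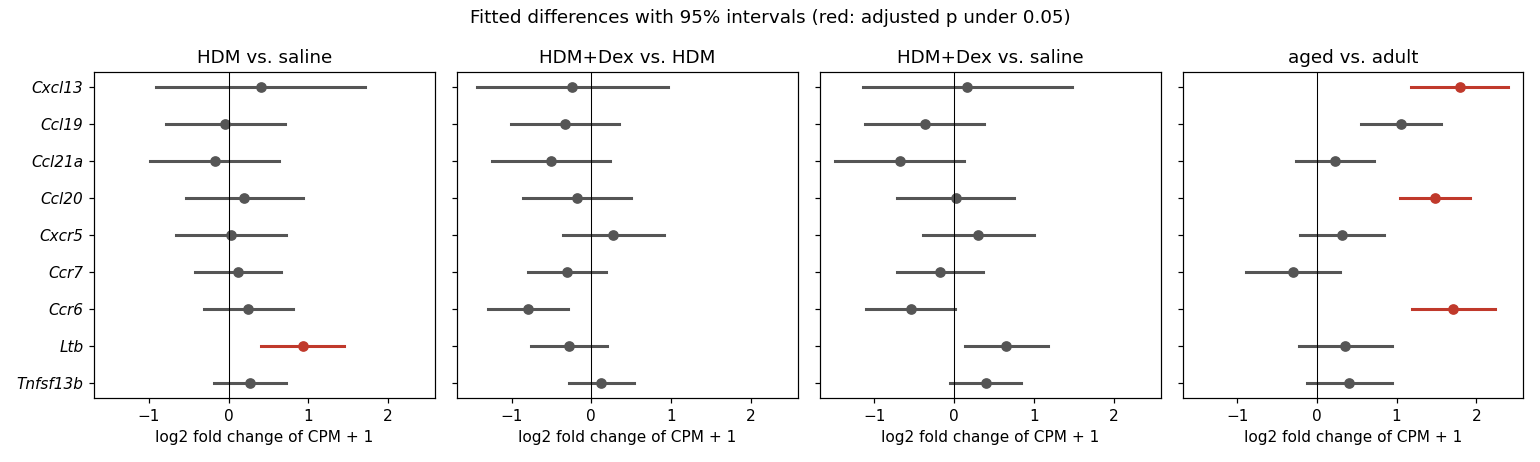
Log2 fold change of CPM + 1 (x axis) for the 9 tested genes (y axis) in the 4 comparisons, with 95% intervals from limma as lines and adjusted p under 0.05 in red. Cxcl13, Ccl20 and Ccr6 lie above 0 in aged vs. adult and Ltb in HDM vs. saline, and no gene is red in the comparisons with HDM + Dex.

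Levels differed widely between the 10 genes. Per kilobase of exon, the naïve aged lung held 38.2 ± 3.40 CPM per kb (SD, n = 5) of Ccl21a, the most abundant of the 10 in each of the 4 groups. Ltb followed at 6.24 ± 3.15, Cxcl13 at 4.46 ± 1.71, Ccr7 at 4.03 ± 1.49, Ccl19 at 3.86 ± 1.84 and Cxcr5 at 3.20 ± 0.516 CPM per kb. Tnfsf13b at 2.38 ± 0.578, Ccr6 at 2.30 ± 0.899, Ccl20 at 1.40 ± 0.630 and Lta at 0.415 ± 0.166 CPM per kb were lower. Within this order, the samples of Ccl21a did not overlap those of Ltb, nor those of Ccl20 those of Lta, whereas the other neighbors overlapped.

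Cxcl13, the B cell chemokine, rose with age. The 5 naïve adult lungs held 0.0808, 0.297, 0.683, 0.865 and 2.26 CPM of Cxcl13, and the 5 naïve aged lungs held 3.53, 5.32, 5.66, 8.04 and 3.12 CPM. Every naïve aged value was above every naïve adult value, and the lowest naïve adult value was below the floor of 3 reads. The log2 fold change was 1.79 (SE 0.29, limma adjusted p = 0.00522), and the exact permutation p was 0.00794. Within females, the 2 naïve aged values of 5.66 and 8.04 CPM also lay above the 5 naïve adult ones, at the smallest p that 2 against 5 allow in an exact permutation test (0.0476). The 3 naïve aged males had no naïve adult counterpart. When all 24 samples shared one estimate of the spread, the fold change was the same and the adjusted p was 0.295.

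Cxcl13 then ranged widely among challenged lungs. In the HDM group its lowest value was 1.34, its median 5.32 and its highest 22.2 CPM, and in the HDM + Dex group 0.695, 4.54 and 25.1 CPM. The 2 highest HDM values, 21.3 and 22.2 CPM, came from the 2 female lungs, and the 5 male lungs lay between 1.34 and 8.22 CPM. In the HDM + Dex group the 4 female lungs held 25.1, 3.50, 10.3 and 22.7 CPM and the 3 male lungs 0.835, 4.54 and 0.695 CPM. Both groups overlapped the naïve aged lungs, and the log2 fold change was 0.40 in HDM vs. saline (95% interval −0.91 to 1.71) and −0.24 in HDM + Dex vs. HDM (95% interval −1.44 to 0.96), with limma adjusted p of 0.66 and 0.911. Against naïve aged lungs HDM + Dex gave 0.16 (limma adjusted p = 0.892). With the 7SL share in the model the HDM vs. saline difference became 2.15 (limma adjusted p = 0.026), where 1172 of 17744 genes were called higher. Within samples below 25% 7SL, 2 HDM lungs averaged 21.8 and 5 naïve aged lungs 5.13 CPM (exact permutation p = 0.0476, the smallest that 2 against 5 allow). Both of these HDM lungs were female, whereas the naïve aged lungs were of both sexes. Within females the means were 21.8 CPM with HDM and 6.85 CPM in naïve aged lungs, without overlap (exact permutation p = 0.333, the smallest possible). Within males the means were 4.59 and 3.99 CPM (exact permutation p = 0.714).

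Ccl20, which attracts CCR6-bearing cells to epithelium, was nearly undetected in naïve adult lungs. It was listed at 0.0001 CPM in 3 naïve adult samples and stood at 0.0542 and 0.108 CPM in the others, all below the floor of 3 reads. The naïve aged lungs held 1.24, 1.05, 3.29, 2.21 and 2.13 CPM, with no overlap. The fitted log2 fold change of 1.48 (SE 0.21, limma adjusted p = 0.00199) depends on the added 1 CPM. Pooled over each group, about 205 estimated reads in naïve aged and 3 in naïve adult lungs gave a ratio of 55.7 (95% exact binomial interval 18.8 to 273, counting error only). With all 24 samples in the model the adjusted p was 0.0581. Challenged lungs overlapped the naïve aged ones, at 1.28, 1.65 and 6.43 CPM (lowest, median and highest) with HDM and 0.557, 1.24 and 6.71 CPM with HDM + Dex. The log2 fold change was 0.20 (SE 0.36) in HDM vs. saline, −0.18 (SE 0.32) in HDM + Dex vs. HDM and 0.02 (SE 0.36) in HDM + Dex vs. saline. With the 7SL share in the model, Ccl20 was called higher in HDM vs. saline, at 1.26 (limma adjusted p = 0.0125). Within males, HDM + Dex lungs averaged 0.946 and HDM lungs 1.62 CPM without overlap (exact permutation p = 0.0179, the smallest that 3 against 5 allow), whereas within females the means were 3.55 and 5.12 CPM (exact permutation p = 0.6). Over both sexes the exact permutation p of HDM + Dex vs. HDM was 0.834.

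Ccl19 and Ccl21a, the ligands of CCR7, were not called with age, although Ccl19 did not overlap between the ages. Ccl19 stood at 0.948, 1.18, 1.35, 0.724 and 0.791 CPM in naïve adult lungs and at 1.65, 2.50, 5.38, 4.69 and 2.50 CPM in naïve aged lungs. The groups did not overlap, but the log2 fold change of 1.05 (SE 0.24) missed the threshold in limma (adjusted p = 0.0557, and 0.00317 to 0.273 over the alternatives), and the exact permutation p was 0.00794. It was called with a sex covariate, with sample quality weights, with the replicate block and without naïve aged sample 1. Altogether 4 of the 10 genes (Cxcl13, Ccl19, Ccl20 and Ccr6) did not overlap between the ages, where 3.09% of all genes tested did not. These 4 averaged under 1 CPM in naïve adult lungs and passed the filter only through the aged groups, where they were higher. Ccl21a held 14.6, 30.7, 32.2, 42.1 and 28.5 CPM in naïve adult lungs and 32.1, 32.7, 38.4, 31.0 and 32.1 CPM in naïve aged lungs, which overlapped. Its log2 fold change was 0.23 (95% interval −0.26 to 0.72).

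Neither Ccl19 nor Ccl21a was called with HDM or Dex. Ccl19 had a lowest, median and highest value of 1.05, 2.48 and 10.2 CPM in HDM lungs and of 0.744, 2.34 and 5.75 CPM in HDM + Dex lungs. Its log2 fold change was −0.04 (SE 0.36) in HDM vs. saline, −0.33 (SE 0.33) in HDM + Dex vs. HDM and −0.37 (SE 0.36) in HDM + Dex vs. saline, and the first of these turned positive under several alternatives. Ccl21a ran from 15.2 to 60.3 CPM around a median of 24.7 with HDM, and from 9.36 to 62.4 CPM around 19.8 with HDM + Dex. The 5 male HDM lungs held 15.2 to 27.2 and the 2 female ones 56.5 and 60.3 CPM. The 3 male HDM + Dex lungs held 9.36 to 10.7 and the 4 female ones 19.8 to 62.4 CPM. The share of all genes that separated by sex in this way was not computed. In HDM vs. saline the log2 fold change of Ccl21a was −0.18 (SE 0.39, limma adjusted p = 0.762), but it was −9.79 CPM within males (exact permutation p = 0.0179, the smallest possible) and 25.1 CPM within samples below 25% 7SL (exact permutation p = 0.0476, the smallest possible). The HDM lungs below 25% were both female, and within females Ccl21a differed by 23.7 CPM (exact permutation p = 0.333, the smallest possible). With the 7SL share as a covariate it was called higher, at 1.02 (limma adjusted p = 0.0306), where 1172 of 17744 genes were called higher. In HDM + Dex vs. HDM it was −0.51 (SE 0.36, limma adjusted p = 0.59). Within males, the means were 10.2 CPM with HDM + Dex and 22.5 CPM with HDM, without overlap (exact permutation p = 0.0179, the smallest possible), and within females 37.3 and 58.4 CPM (exact permutation p = 0.267). With the 7SL share as a covariate Ccl21a was called lower in HDM + Dex vs. HDM (−0.77, limma adjusted p = 0.044), where 250 of 17744 genes were called lower. Against naïve aged lungs it was −0.68 (SE 0.39, limma adjusted p = 0.299), and it was called with a sex covariate (−0.88, limma adjusted p = 0.0414) and with sample quality weights (−1.01, limma adjusted p = 0.0148). The sum of the 4 Ccl21 copies averaged 59.6 ± 9.22 CPM in naïve aged lungs (SD, n = 5), 53.4 ± 17.9 CPM in naïve adult lungs (SD, n = 5), 56.2 ± 34.8 CPM with HDM (SD, n = 7) and 40.7 ± 31.6 CPM with HDM + Dex (SD, n = 7), and the exact permutation p of its 4 comparisons ran from 0.231 to 0.817.

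**Figure D2:**
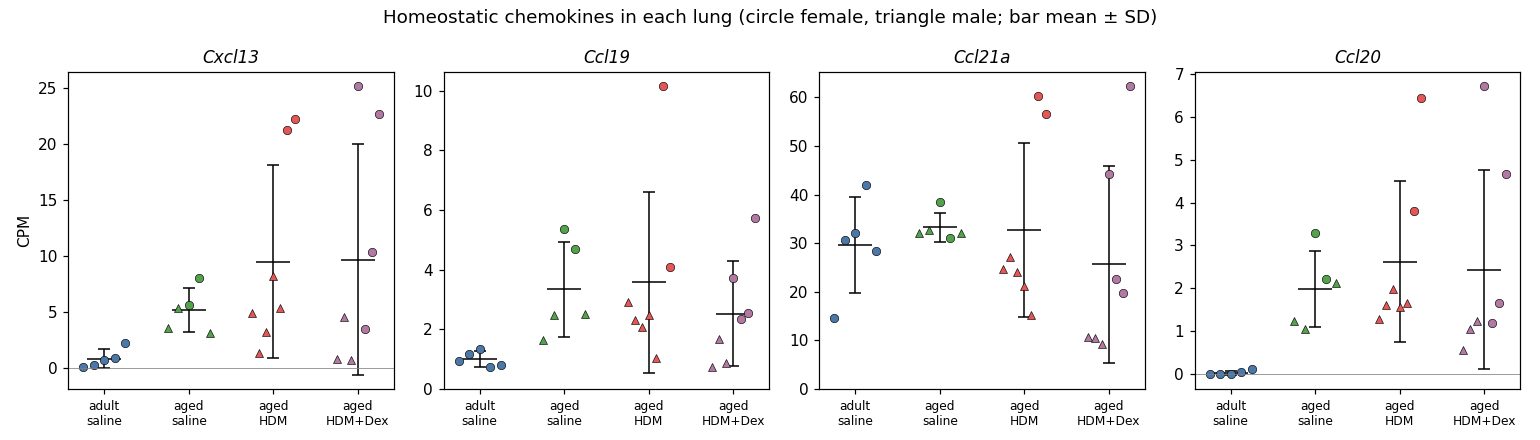
CPM (y axis) of Cxcl13, Ccl19, Ccl21a and Ccl20 in each lung by group (x axis), with female mice as circles, male mice as triangles and the mean ± SD as bars. Cxcl13, Ccl19 and Ccl20 of all naïve adult lungs lie below the naïve aged ones, and the highest HDM and HDM + Dex values of all 4 genes belong to female mice.

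The chemokine levels of the aged lungs were therefore set against sex in the same model, an analysis added after the values were seen. With a sex term beside the 3 aged groups, Cxcl13 was higher in females by 1.83 (SE 0.35) on the log2 scale, Ccl19 by 1.11 (SE 0.18), Ccl21a by 1.12 (SE 0.22) and Ccl20 by 0.98 (SE 0.21), with limma adjusted p of 0.0124, 0.00433, 0.0124 and 0.016. These 4 were called and the 5 receptor and ligand genes tested were not, at differences of 0.07 to 0.44. In that model 13.8% of all genes were called, 2408 of them higher in females and 2447 in all. Its sex term is 1 difference shared by the 3 groups. In naïve aged lungs Ccl21a overlapped between the sexes, at 31.0 and 38.4 CPM in females and 32.1 to 32.7 CPM in males. For Cxcl13, Ccl19 and Ccl20 the 2 female values lay above the 3 male ones there. The share of all genes that separated in this way was not computed, so this cannot be read as a trait of these genes. In the challenged groups every male had a 7SL share above 25%. After median-of-ratios rescaling 0.107% of all genes were called, among them Ccl19 (0.92, limma adjusted p = 0.0245), and Cxcl13 (1.62), Ccl21a (0.87) and Ccl20 (0.79) missed the threshold. With the 7SL share as a further term 0.0507% were called and none of these genes, at 1.09 for Cxcl13, 0.87 for Ccl19, 0.47 for Ccl21a and 0.41 for Ccl20. The part of the 7SL share in the difference between the sexes was not tested apart from these models. Across the 19 aged samples, after removal of the group means, the log2(CPM + 1) of the 4 chemokines correlated with each other at r = 0.737 to 0.849, a description of points that share a library, its 7SL share and its sex.

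**Figure D3:**
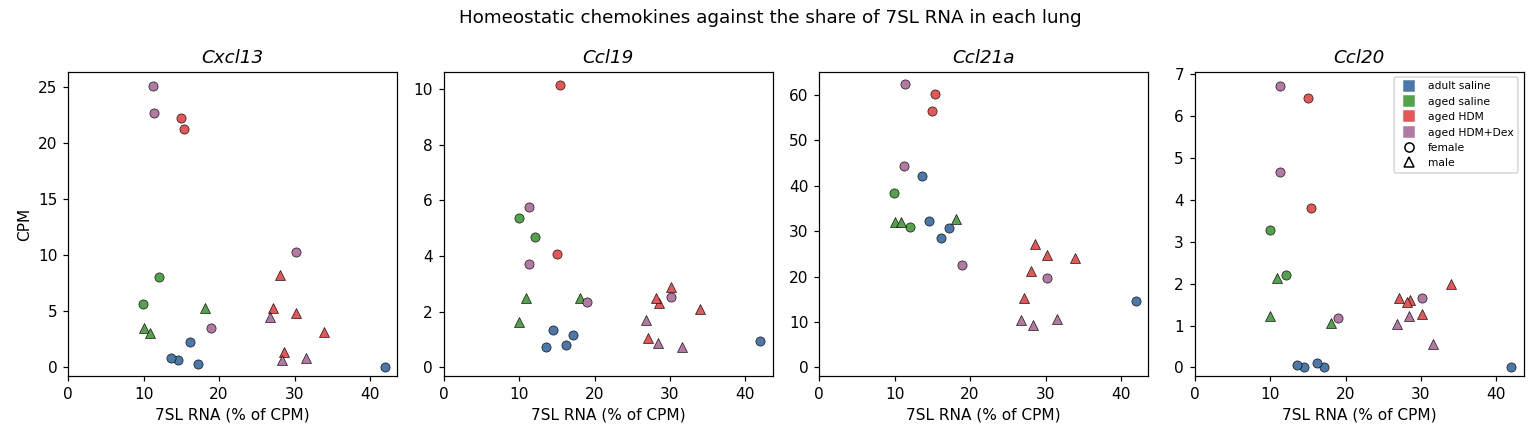
CPM of the 4 chemokine genes (y axis) against the share of 7SL RNA in percent of CPM (x axis) in each lung, colored by group, with female mice as circles and male mice as triangles. Among challenged lungs the highest values of each gene lie at low 7SL shares, and the 5 HDM lungs above 25% are all male.

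Ccr6, the receptor of CCL20, rose with age like its ligand. It stood at 0.242, 1.63, 0.751, 0.757 and 1.24 CPM in naïve adult lungs, the lowest of these at the floor of 3 reads, and at 4.94, 3.57, 5.32, 8.85 and 4.01 CPM in naïve aged lungs. The groups did not overlap, the log2 fold change was 1.71 (SE 0.25, limma adjusted p = 0.00203), and the exact permutation p was 0.00794. Ccr6 was called under each of the 19 alternatives computed for this comparison that kept it in the test. Its mean was 6.77 ± 3.40 CPM with HDM and 3.35 ± 1.29 CPM with HDM + Dex (SD, n = 7 each), with lowest, median and highest values of 4.32, 5.22 and 13.2 CPM and of 1.58, 3.12 and 4.75 CPM. The groups overlapped little, as HDM + Dex was the higher in 6 of 49 pairs of samples. The log2 fold change of HDM + Dex vs. HDM was −0.80 (SE 0.24) and missed the threshold (limma adjusted p = 0.114, and 0.0451 to 0.242 over the alternatives), while the exact permutation p, unadjusted among the 40, was 0.00991. It was called with a sex covariate, at −0.92. Within females the means were 3.72 and 8.73 CPM (exact permutation p = 0.2) and within males 2.85 and 5.99 CPM (exact permutation p = 0.0893), lower with HDM + Dex in both sexes. In HDM vs. saline the log2 fold change was 0.25 (SE 0.27), and in HDM + Dex vs. saline −0.55 (SE 0.27, limma adjusted p = 0.239).

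Cxcr5 and Ccr7, the receptors of B cells and of T and dendritic cells, were not called in any of the 4 comparisons. Cxcr5 held 5.09, 13.9, 11.5, 5.35 and 8.50 CPM in naïve adult lungs and 13.1, 10.01, 9.86, 11.6 and 8.71 CPM in naïve aged lungs. Its lowest, median and highest values were 7.82, 9.42 and 25.6 CPM with HDM and 6.87, 11.4 and 40.3 CPM with HDM + Dex. All groups overlapped, and the log2 fold change was 0.32 (SE 0.25) with age, 0.03 (SE 0.33) in HDM vs. saline, 0.27 (SE 0.31) in HDM + Dex vs. HDM and 0.30 (SE 0.33) in HDM + Dex vs. saline. Ccr7 held 8.07, 12.8, 15.7, 7.19 and 6.51 CPM in naïve adult lungs and 9.78, 8.89, 6.19, 11.2 and 3.81 CPM in naïve aged lungs, and its median was 8.70 CPM with HDM (4.02 to 13.5) and 5.83 CPM with HDM + Dex (5.20 to 10.5). Its groups overlapped as well, and the log2 fold change was −0.30 (SE 0.28) with age, 0.12 (SE 0.26) in HDM vs. saline, −0.30 (SE 0.24) in HDM + Dex vs. HDM and −0.18 (SE 0.26) in HDM + Dex vs. saline. Thus Cxcl13 was called with age and its receptor was not. That difference was not tested.

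Ltb, which encodes the membrane anchor of the lymphotoxin complex, was the gene called with HDM. Naïve aged lungs held 8.30, 9.38, 6.82, 17.5 and 5.29 CPM, and HDM lungs had a lowest, median and highest value of 10.6, 19.7 and 27.1 CPM. The groups overlapped through naïve aged sample 4, at 17.5 CPM, and HDM was the higher in 32 of 35 pairs. The log2 fold change was 0.93 (SE 0.25, limma adjusted p = 0.0105), and the exact permutation p of the means, 18.4 ± 5.98 and 9.47 ± 4.77 CPM (SD, n = 7 and 5), was 0.0227. Ltb was called under the alternatives computed (adjusted p 0.00241 to 0.0629) except with the 7SL share as a covariate, where the fold change was 0.96 and the adjusted p 0.0629. Within males, HDM lungs averaged 18.3 and naïve aged lungs 7.66 CPM (exact permutation p = 0.0357), and within females 18.6 and 12.2 CPM (exact permutation p = 0.667). Without naïve aged sample 5 the exact permutation p was 0.0515, and within samples below 25% 7SL it was 0.0952. Ltb in HDM + Dex lungs ran from 9.41 to 20.98 CPM around a median of 13.7, between the other aged groups. Its log2 fold change was −0.28 (SE 0.23, limma adjusted p = 0.666) in HDM + Dex vs. HDM and 0.65 (SE 0.25, limma adjusted p = 0.156) in HDM + Dex vs. saline, and the latter was called with sample quality weights (0.62, limma adjusted p = 0.0427). Naïve adult lungs held 3.96, 8.20, 7.65, 5.62 and 8.77 CPM and overlapped naïve aged ones (log2 fold change 0.36, SE 0.27).

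Lta, which forms the complex with LTB, had the lowest mean per kilobase of the 10 genes in each of the 3 aged groups, and Ccl20 was lower in naïve adult lungs. Naïve aged lungs held 0.742, 0.840, 0.290, 0.603 and 0.396 CPM, and HDM lungs had a lowest, median and highest value of 0.465, 1.601 and 2.51 CPM. HDM was the higher in 30 of 35 pairs, and the means of 1.49 ± 0.723 and 0.574 ± 0.230 CPM (SD, n = 7 and 5) had an exact permutation p of 0.0303. Without the filter on low values, Lta was called in HDM vs. saline at 0.61 (SE 0.21, limma adjusted p = 0.0468), beside Ltb. The exact permutation p was 0.232 within males, 0.333 within females (the smallest possible there), 0.0606 without naïve aged sample 3 and 0.0545 without naïve aged sample 5. With HDM + Dex the values were 0.186, 1.00 and 1.29 CPM (lowest, median and highest), and the exact permutation p was 0.0624 against HDM and 0.293 against naïve aged lungs. Naïve adult lungs held 0.0808, 0.395, 0.478, 0.216 and 0.538 CPM (exact permutation p = 0.119 against naïve aged).

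Tnfsf13b, which encodes BAFF, was not called in any comparison. It held 5.89, 12.2, 16.4, 14.7 and 12.7 CPM in naïve adult lungs and 16.7, 17.2, 21.6, 15.5 and 10.5 CPM in naïve aged lungs. Its lowest, median and highest values were 11.4, 21.2 and 26.1 CPM with HDM and 13.3, 24.6 and 27.7 CPM with HDM + Dex. All groups overlapped, and the log2 fold change was 0.41 (SE 0.25) with age, 0.27 (SE 0.22) in HDM vs. saline, 0.13 (SE 0.20) in HDM + Dex vs. HDM and 0.39 (SE 0.22) in HDM + Dex vs. saline.

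**Figure D4:**
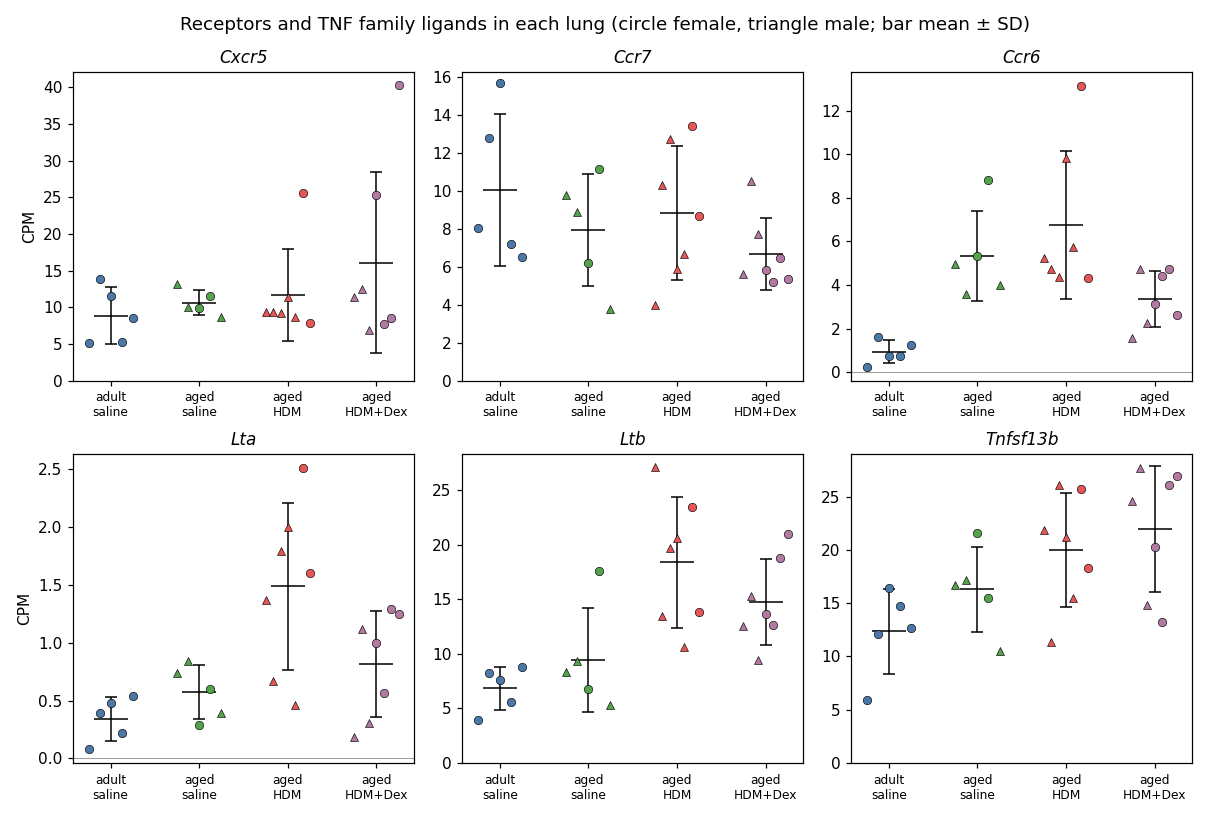
CPM (y axis) of the receptor genes Cxcr5, Ccr7 and Ccr6 and of the ligand genes Lta, Ltb and Tnfsf13b in each lung by group (x axis), with female mice as circles, male mice as triangles and the mean ± SD as bars. Ccr6 of the naïve adult lungs lies at or below 1.63 CPM and that of the naïve aged lungs at or above 3.57 CPM, and the HDM mean of Ltb is 18.4 CPM beside 9.47 CPM in naïve aged lungs.

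Further genes of the lymphotoxin pathway were taken from fixed lists. Of 12 tested ligands and receptors of the TNF family, 4 rose and 0 fell in HDM vs. saline. Of all genes tested 4.04% were called higher there and 21.2% lower. The 4 of this list were Tnfsf11 (1.12), the cytokine RANKL, its receptor Tnfrsf11a (0.75), the plasma cell factor Tnfsf13 (0.71) and Cd40 (0.56), the co-stimulatory receptor of B cells and dendritic cells, on the log2 scale. The median log2 fold change of the list was 0.44, beside −0.23 over all genes. Ltbr, the receptor of the lymphotoxin complex, averaged 36.1 ± 6.32 CPM in naïve aged and 41.1 ± 5.58 CPM in HDM lungs (0.19, SE 0.12), and Tnfrsf13c, the BAFF receptor, 12.8 ± 6.33 and 12.7 ± 3.44 CPM (0.09, SE 0.42). With age, 0 of the 12 were called, and Tnfrsf13c had a log2 fold change of 1.09 (limma adjusted p = 0.187). In HDM + Dex vs. HDM 0 of the 12 were called, and in HDM + Dex vs. saline 1 was, Tnfsf13 at 0.91.

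Of 12 genes of the non-canonical and canonical NF-κB pathways, 2 rose and 1 fell in HDM vs. saline, where 4.04% of all genes were called higher and 21.2% lower. Taken in either direction, the count is near the 25.3% of all genes called. The list median was 0.25, beside −0.23 over all genes. Nfkb2, the NF-κB subunit activated by lymphotoxin, rose by 0.57 (SE 0.18, limma adjusted p = 0.0269) and Birc3, an inhibitor of the pathway's kinase, by 0.39 (SE 0.14, limma adjusted p = 0.0394). Nfkbia, which encodes an inhibitor of NF-κB, fell by 0.57 on the log2 scale (SE 0.18, limma adjusted p = 0.0246). Relb, the partner of the Nfkb2 product, ran from 17.5 to 21.2 CPM in naïve aged and from 16.3 to 42.6 CPM in HDM lungs (0.44, SE 0.21, limma adjusted p = 0.128). After median-of-ratios rescaling 7 of these 12 were called higher and 0 lower, Relb among the 7 and Nfkbia among neither. Rescaling left 1934 of 17681 genes called higher and 2052 lower. In HDM + Dex vs. HDM 0 of the 12 were called, with Nfkb2 at −0.31 and Relb at −0.38, in HDM + Dex vs. saline 1 was lower, again Nfkbia (−0.78), and with age 0 were called.

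Among other guidance genes, 2 were called higher and 2 lower of 12 in HDM vs. saline, where 4.04% of all genes were called higher and 21.2% lower. Of these 12 tested chemokines, scavenging receptors and oxysterol genes, Ch25h (1.45) and Cyp7b1 (0.77), enzymes in the synthesis of an oxysterol that guides lymphocytes, rose, and S1pr1 (−1.09), a sphingosine phosphate receptor of lymphocytes and endothelium, and Ccl28 (−0.63), a mucosal chemokine, fell. With rescaled values 3 were called higher and 1 lower, without Ccl28 and with Cxcr4. Of 8 tested genes of lymphoid stroma and high endothelial venules, 0 were called in HDM vs. saline and 4 after rescaling, all higher. After rescaling 1934 of 17681 genes were called higher and 2052 lower. Mfge8, which opsonizes dying cells, fell with Dex (−0.84, limma adjusted p = 0.0356). Of 6 tested genes of lymphoid tissue inducer and follicular helper T cells, the T cell checkpoint gene Pdcd1 rose in HDM vs. saline (0.88) and with age (1.18). S1pr1 (−1.08) in HDM + Dex vs. saline was the 1 gene called among these 3 lists.

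Markers of the cells that carry the receptors were examined beside these results. Of 10 B cell markers, 0 were called in each of the 4 comparisons. Their summed level was 59.2 to 153.3 CPM in naïve adult lungs, 94 to 297.8 CPM in naïve aged lungs, 131 to 375.6 CPM with HDM and 93.2 to 493.5 CPM with HDM + Dex. With age their median log2 fold change was 0.77, with Ms4a1 at 1.07 (limma adjusted p = 0.371). Of 10 T cell markers, 0 were called in each comparison, and their sum was 28.6 to 85.8 CPM, 49.2 to 165.1 CPM, 79.1 to 209.8 CPM and 49.2 to 193.2 CPM in the same order, with Cd3e at 0.78 with age (limma adjusted p = 0.414) and 0.41 with HDM (limma adjusted p = 0.246). Of 7 tested plasma cell markers 4 rose with age, led by Jchain (5.23) and Igha (2.09), and their sum was 146 to 263 CPM in naïve adult and 364 to 882 CPM in naïve aged lungs, without overlap. Neutrophil markers were called higher with age as well (5 of 6 tested), at sums of 24.9 to 84.7 CPM in naïve adult and 86.2 to 285 CPM in naïve aged lungs, and Il4i1 (1.08) was the 1 mature dendritic cell marker called. Of all genes tested 0.592% were called higher with age.

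With HDM, 5 of 7 tested markers of mature dendritic cells, which carry CCR7, rose, among them Zmynd15 (1.16), Il4i1 (1.56) and Ccl22 (1.37), and their sum ran from 126 to 172 CPM in naïve aged and 136 to 240 CPM in HDM lungs. Macrophage markers rose too (4 of 8), beside 4.04% of all genes called higher. Of the neutrophil markers 3 of 6 fell, of the lung tissue markers 4 of 10, and of 7 lymphatic endothelium markers, which include Ccl21a, 1 (Lyve1), beside 21.2% of all genes called lower. After rescaling, which left 2052 of 17681 genes called lower, these counts were 2, 4 and 1. No marker of these lists was at 0.0001 CPM throughout a group, apart from the thymocyte gene Rag1 in HDM + Dex lungs. Of 2 tested thymocyte markers 0 were called in each comparison. Igha rose with HDM (2.58) and was the 1 marker of these lists called in HDM + Dex vs. HDM (−1.72), and 0 were called in HDM + Dex vs. saline. The part of these cell types in the levels of the chemokine, receptor and ligand genes was not tested.

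The genes whose log2(CPM + 1) followed each of the 9 tested genes most closely over the 24 samples were listed as a description, without a test, since samples share groups, depth and 7SL share. For Cxcl13 they were Il2ra, Mcm10 and Ttk (r = 0.955, 0.952 and 0.928), for Ccl19 Cd72 and Pml (0.884 and 0.869), for Ccl21a Tgfbr2, Trpc4ap and Limd2 (0.929, 0.909 and 0.903) and for Ccl20 Tnfsf8, Naip2 and Apobec3 (0.889, 0.879 and 0.879). Among the receptors, Cxcr5 was followed by A530030E21Rik, Blk and Siglecg (0.873, 0.866 and 0.861), Ccr6 by Ighg2b, 3110080E11Rik and Il21r (0.867, 0.839 and 0.831), and Ccr7 by Satb1, Trpt1 and Txk at a lower r (0.667, 0.666 and 0.654). Ltb was followed by Mmp25, Arhgap4 and Mcm3 (0.895, 0.894 and 0.891), and Tnfsf13b by Lmnb2, Wdhd1 and A130071D04Rik (0.864, 0.856 and 0.851).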

How the data were processed

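The authors prepared stranded mRNA libraries from lung and deposited CPM per gene and sample after adding 0.0001 to every value. The paper's methods name the Picard-STAR-limma pipeline, and the submitters' processing notes name FastQC, STAR, DESeq2 and mm9. The gene coordinates instead followed GRCm38: of 23276 symbols found in GENCODE M21, 23140 had the same start. Strand handling and the sharing of reads among copies are not given in the sources used here. Low values were whole multiples (within 0.05) of one step in only 79.5% to 85.8% per sample, so differential expression was not tested on counts. The binomial interval given for Ccl20 rests on estimated reads rounded to whole numbers.

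Genes averaging 1 CPM or more were fitted as log2(CPM + 1) with limma 3.58.1 in R 4.3.3 (mean-variance trend, eBayes), the 19 aged samples together and the 10 naïve samples on their own. The fit was also tested on simulated data. Permutation tests were exact and two-sided (Python 3.11.15). Sex was read from Xist and Ddx3y. The 10 genes, the lists and the tests were chosen with earlier results of these data known. All 10 genes are named; of each other list, up to 4 called genes with the lowest p and a fixed set (Nfkb2, Relb, Ltbr, Tnfrsf13c, Ms4a1 and Cd3e), and for each tested gene the 3 genes with the highest Pearson correlation. A few genes that this rule names are not reported here. The alternatives (constant, filter, rescaling, groups in the model, sample weights, replicate block, sex and 7SL covariates, leaving out samples) are given in the closing section.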

Additional observations from a re-analysis of the deposited data

Results flagged for a closer look

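In each gene and group of 4 to 10 samples, the highest and lowest value was set against Dixon's 95% limit for a sample standing apart. Of 40 such groups 3 exceeded it, and chance flags about 1 in 20 groups, or 2 of these. Ccl19 stood at 10.15 CPM in HDM sample 6, with a gap of 0.667 of the group's range to the next sample. Cxcr5 stood at 25.61 CPM in the same sample, with a gap of 0.795 of the range. Ccl21a stood at 38.43 CPM in naïve aged sample 3, with a gap of 0.775 of the range.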

How the results depend on the processing

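The higher levels of Ccr6, Cxcl13 and Ccl20 with age and of Ltb with HDM kept their direction under the alternatives computed, and the calls lost are given in the report. Most other differences lay near 0 with wide intervals, and 52 values for single genes changed sign under alternatives that kept all samples or took those of 1 sex or range of 7SL share, and 49 when 1 sample was left out. The cause was not tested. For scarce genes such as Lta and Ccl20 a few reads set each value. The comparison between the sexes and its alternatives were chosen after seeing the data.

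A constant of 5 CPM gave Ccl19 0.0011 on the log2 scale in HDM vs. saline, and a constant of 0.1 CPM gave Ccl20 −0.0641 in HDM + Dex vs. saline. Without the filter 2 of the genes were called in HDM vs. saline, and 83 and 213 genes of the table in HDM + Dex vs. HDM and vs. saline. A filter at 5 CPM left 1 of the genes (Cxcl13) and 67 of all genes called with age. With other groups in the model, HDM + Dex vs. HDM gave 1 called gene, HDM + Dex vs. saline 519 and aged vs. adult 65, among them 1 of the genes described (Ccr6).

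With median-of-ratios rescaling, 508 genes were called in HDM + Dex vs. HDM, 170 in HDM + Dex vs. saline, 182 with age and 19 between the sexes (1 of those described). In HDM vs. saline the log2 fold change became 0.13 for Ccl19 and 0.0699 for Ccl21a, whose difference became 3.38 CPM. Ccr7 became 0.006 in HDM + Dex vs. saline, and the difference of Cxcl13 in HDM + Dex vs. HDM became −0.178 CPM. Between the sexes, Ccr7 became −0.16 and Tnfsf13b −0.10.

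With sample quality weights, 7876 genes were called in HDM vs. saline, 611 in HDM + Dex vs. HDM, 5471 in HDM + Dex vs. saline (2 of those described) and 784 with age. Ccl20, Cxcr5 and Ccr7 became −0.013, −0.0708 and −0.14 on the log2 scale in HDM vs. saline, and Cxcl13, Ccl20 and Cxcr5 became −0.21, −0.27 and −0.0012 in HDM + Dex vs. saline.

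The labels do not say whether replicate numbers pair the samples. Same-numbered samples of different groups correlated at −0.238 to 0.407 in their deviations from the group means. Differently numbered samples were not set beside them, so these values cannot decide it. The number partly follows sex. HDM samples 1 to 5 and HDM + Dex samples 1 to 3 were male, and HDM samples 6 and 7 and HDM + Dex samples 4 to 7 were female. With the number as a replicate block, 5644 genes were called in HDM vs. saline, 8 in HDM + Dex vs. HDM, 898 in HDM + Dex vs. saline and 6 between the sexes, 0 of the latter among those described. Cxcl13, Ccl20 and Cxcr5 became −0.17, −0.0536 and −0.14 on the log2 scale in HDM vs. saline, Cxcl13 and Ccl20 became −0.41 and −0.23 in HDM + Dex vs. saline, and Tnfsf13b became −0.0074 between the sexes.

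With a sex covariate, 293 genes (1 described here, Ccr6) were called in HDM + Dex vs. HDM and 1929 (1, Ccl21a) in HDM + Dex vs. saline. Ccl19 became 0.0844 in HDM vs. saline, and Cxcl13 and Ccl20 both became −0.15 in HDM + Dex vs. saline. With the 7SL share as a covariate, 1571 genes (3 described here) were called in HDM vs. saline, 563 (1, Ccl21a) in HDM + Dex vs. HDM, 34 in HDM + Dex vs. saline and 9 (0) between the sexes. Ccl19 and Ccl21a became 0.87 and 1.02 in HDM vs. saline and 0.35 and 0.26 in HDM + Dex vs. saline, Ccl21a became −0.11 with age, and Cxcr5 became −0.21 between the sexes.

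For differences in mean CPM, log2(CPM + 1) gave −0.0422 for Ccl19 in HDM vs. saline and −0.24 for Cxcl13 in HDM + Dex vs. HDM. Within males, Ccl19 (−0.0476) and Cxcr5 (−0.952) changed sign in HDM vs. saline, Cxcl13 (−2.57) and Ccr7 (0.0317) in HDM + Dex vs. HDM, and Cxcl13 (−1.97), Ccl20 (−0.525), Cxcr5 (−0.358), Ccr7 (0.480) and Lta (−0.122) in HDM + Dex vs. saline. Within females, Ccl21a (23.7) changed sign in HDM vs. saline, Cxcl13 (−6.34) and Tnfsf13b (−0.340) in HDM + Dex vs. HDM and Ccl21a (2.56) in HDM + Dex vs. saline. Below 25% 7SL, Ccl21a (25.1) did so in HDM vs. saline, Cxcl13 (−4.65) and Tnfsf13b (−1.81) in HDM + Dex vs. HDM, Ccl19 (0.597) and Ccl21a (9.85) in HDM + Dex vs. saline and Ccl21a (−0.108) with age. Above 25%, Cxcl13 (−0.485) did so in HDM + Dex vs. HDM.

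Without 1 sample at a time, HDM vs. saline gave 1 of the described genes and 2954 to 5338 genes in all, the lowest without naïve aged sample 3. HDM + Dex vs. HDM gave 0 and 2 to 544, with fewer than 10 genes without HDM sample 1, 3, 4 or 5 or HDM + Dex sample 1, 3, 4 or 5. HDM + Dex vs. saline gave 0 and 66 to 772, under 335 by over 1.5 times without naïve aged sample 1, 3, 4 or 5 or HDM + Dex sample 1, 2, 3 or 6 and over it without HDM + Dex sample 4 or 7, and aged vs. adult 3 to 4 and 74 to 154, the lowest without naïve adult sample 2. Between the sexes 3 to 4 and 152 to 5495 were called, with 152 and 278 without HDM sample 7 and 6, 244 to 575 without HDM + Dex sample 1, 3, 4 or 7 and 5495 without HDM + Dex sample 6. Without HDM sample 7, Ccl20 missed the threshold. Log2 fold changes ran from −0.29 to 0.12 for Ccl19, −0.17 to 0.10 for Cxcr5 and −0.0854 to 0.27 for Ccr7 in HDM vs. saline, from −0.57 to 0.0879 for Cxcl13 and −0.41 to 0.0155 for Ccl20 in HDM + Dex vs. HDM, and from −0.17 to 0.49 for Cxcl13 and −0.21 to 0.17 for Ccl20 in HDM + Dex vs. saline, and Ccr7 ran from −0.0579 to 0.18 between the sexes. Differences in mean CPM ran from −0.854 to 0.749 for Ccl19, −5.09 to 2.42 for Ccl21a, −0.00228 to 0.960 for Ccl20, −1.30 to 1.67 for Cxcr5 and −0.168 to 1.67 for Ccr7 in HDM vs. saline. They ran from −2.39 to 2.31 for Cxcl13, −1.60 to 0.0342 for Ccl19 and −0.895 to 0.454 for Ccl20 in HDM + Dex vs. HDM, from −0.261 to 0.778 for Ccl20 in HDM + Dex vs. saline and from −0.108 to 6.75 for Ccl21a with age. Exact permutation p fell under 0.05 for Lta in HDM + Dex vs. HDM without HDM sample 2 or 5 (0.0297 and 0.0181), and for Ccr6 (0.0303 to 0.0498), Ltb (0.0121 and 0.039) and Tnfsf13b (0.0346 and 0.0498) in HDM + Dex vs. saline without 1 of several samples. It did so with age for Ccl21a without naïve adult sample 4 and for Tnfsf13b without naïve aged sample 5 (0.0317 each).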
